A study of Mus musculus with 12 samples.

Results

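The clustered protocadherins are the adhesion genes of the alpha, beta and gamma arrays on mouse chromosome 18, and their counts were followed in sorted astrocytes and microglia of mice whose hippocampal astrocytes overexpressed the adenosine A2A receptor. Members were found by symbol and Ensembl identifier, and selected on their presence in both count tables, which means at least 1 read count in some library of each cell fraction. Of 58 identifiers with a family symbol in the GRCm38 annotation, 46 met this rule, out of 32783 genes listed in either table. They were 3 alpha, 21 beta, 11 gamma A and 7 gamma B members and 4 C-type members (Pcdhac2 of the alpha array, Pcdhgc3, Pcdhgc4 and Pcdhgc5 of the gamma array). A further 6 identifiers (Pcdha1, Pcdha2, Pcdha6, Pcdha9, Pcdhac1 and Pcdhb5) were listed for the ACSA-2 fraction alone and 6 in neither table. Just outside the rule, Pcdhac1 had 2 counts in 1 library and Pcdhb5 had 8 to 106 counts in the 6 ACSA-2 libraries. Just inside it, Pcdhb13 had 1 count over the 6 CD11b libraries. The family was proposed, and Pcdhga7 named with it, with results of these data known, so the astrocyte difference of Pcdhga7 is described here without a test.

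Clustered protocadherins are cadherin-like membrane proteins that bind identical copies of themselves on neighbouring cells. Each alpha and gamma gene contributes its own large variable exon, which encodes the extracellular part, the membrane span and the start of the cytoplasmic tail. That exon is spliced to constant exons shared by the whole alpha or the whole gamma array, whereas the beta genes have no shared constant exons. In neurons most of these promoters are chosen stochastically, with the looping factor CTCF and cohesin, and the resulting combinations give cells an identity used in the self-avoidance of their branches. C-type promoters are used more uniformly across cells. Gamma protocadherins are also made by astrocytes, where they take part in contacts with neurons.

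The samples were RNA sequencing libraries from hippocampi of male C57Bl6/J mice that received an AAV2/9 vector in both CA1 fields at 2 months of age and were studied 2 months later. The vector carried either the mouse A2A receptor (AAV-A2A) or enhanced green fluorescent protein (AAV-GFP), each under GfaABC1D, a short Gfap promoter that is selective for astrocytes. No uninjected group was analysed here, so every control also carried a vector and a foreign protein. Dissociated cells were bound first to beads against ACSA-2, an astrocyte surface antigen, and the cells that did not bind were then bound to beads against CD11b, an integrin of microglia. Each of the 4 groups had 3 libraries, and libraries are named by vector and the number in their title. The vector acts in CA1 astrocytes, whereas whole hippocampi were dissociated, so an ACSA-2 library also holds astrocytes from outside the injected field.

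The total count per library was 33937067 to 49217553 in the ACSA-2 fraction and 36098295 to 53206974 in the CD11b fraction. Counts of Adora2a, which encodes the A2A receptor, were 774 to 981 in the ACSA-2 AAV-GFP libraries against 27303 to 42668 with AAV-A2A, as labelled. Counts are given below as such or as counts per 1000000 counts (CPM), scaled within each fraction by the trimmed mean of M values (TMM). The summed level of 8 astrocyte markers was 10500 to 15400 CPM in ACSA-2 libraries and 239 to 415 CPM in CD11b libraries. The summed level of 8 microglia markers was 239 to 441 CPM in ACSA-2 libraries. In the CD11b fraction 3 libraries stood apart. GFP-2328, GFP-2329 and A2A-2347 had 76000, 61800 and 31500 CPM of 6 choroid plexus markers, led by Ttr, against 9.05 to 91.4 CPM in GFP-2331, A2A-2343 and A2A-2344. Their microglia markers summed to 6710, 13300 and 20700 CPM, against 44200 to 50900 CPM in the other 3. The comparisons that use CD11b libraries were therefore also fitted without those 3 libraries, a choice made after seeing the data.

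The counts record variable exons only. The authors counted reads in union mode, in which a read on a constant exon fits every gene of its array and is dropped. Pcdhga7 (ENSMUSG00000103472) has 5217 exon bases in the annotation, of which 2562 overlap no other gene on either strand, and its variable exon lies on chromosome 18 from 37714764 to 37717861 on the plus strand (GRCm38). Pcdhgb7 (ENSMUSG00000104063) has its variable exon at 37751600 to 37754193, and the antisense gene Gm26672 covers part of it, which leaves 1823 of its bases unshared. Pcdhgc5 (ENSMUSG00000102543) has 4606 unshared bases between 37819513 and 37825020. The library kit does not mark strand, so reads of Pcdhgb7 and Gm26672 cannot be told apart where they overlap. The same holds for Pcdhgc3, whose exon is partly covered by BC037039, and for Pcdhga7, whose exon is partly covered by Gm37165. Gm37165 was assigned 0 to 21 counts per ACSA-2 library. Gm26672 itself was assigned 1 to 50 counts per ACSA-2 library. Levels are compared between genes only as CPM per kilobase of these unshared bases.

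**Figure D1:**
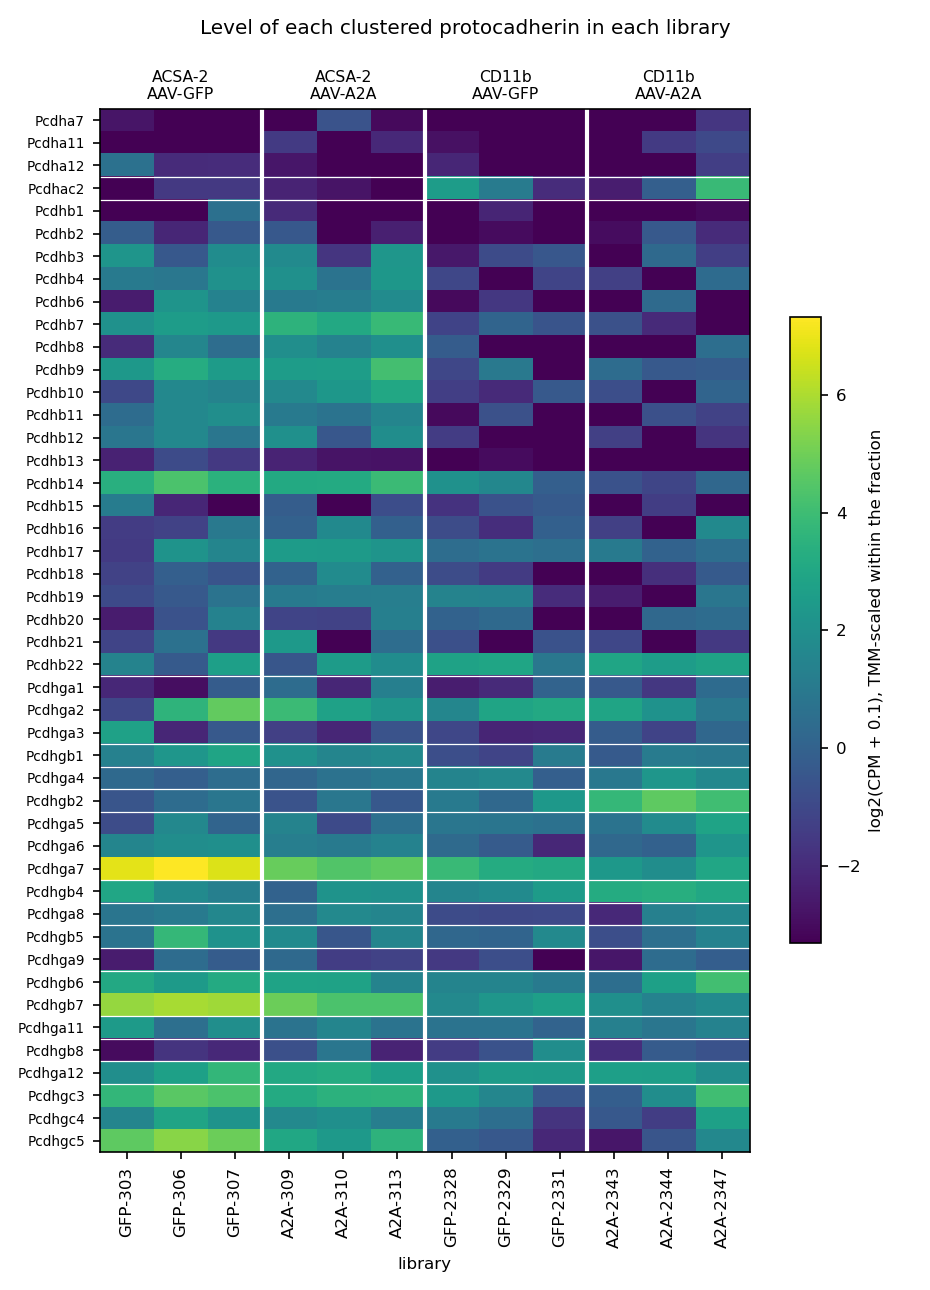
Rows are the 46 members in order along chromosome 18, columns are the 12 libraries by group, and colour is log2(CPM + 0.1). Pcdhga7, Pcdhgb7 and Pcdhgc5 are the brightest rows in the ACSA-2 AAV-GFP libraries, the alpha rows at the top are dark throughout, and Pcdhac2 is bright in A2A-2347 and GFP-2328.

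In control astrocytes the family was led by a few gamma genes. Per kilobase, the mean level in the ACSA-2 AAV-GFP libraries was highest for Pcdhga7 at 50.2 ± 10.6 CPM per kb (SD, n = 3), followed by Pcdhgb7 at 30.2 ± 2.73 CPM per kb. Pcdhgc3, a C-type member known to bind the Wnt regulator Axin1, came next at 10.4 ± 3.09 CPM per kb, and Pcdhgc5, a C-type member known to bind GABA-A receptors, had 7.10 ± 1.88 CPM per kb. The SD ranges of Pcdhgc3 and Pcdhgc5 overlapped, whereas those of Pcdhga7, Pcdhgb7 and Pcdhgc3 did not. Pcdhga2 at 5.16 ± 5.25 CPM per kb varied as much as its own mean, with 15, 410 and 1043 counts in GFP-303, GFP-306 and GFP-307. Pcdhgb6 was the next gamma B member at 2.97 ± 0.761 CPM per kb. The beta members were led by Pcdhb9 at 2.21 ± 0.820 and Pcdhb12 at 1.93 ± 0.667 CPM per kb, which overlapped.

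Alpha members were near the limit of detection. Pcdha7, Pcdha11 and Pcdha12 together had 0.148 to 1.52 CPM in the ACSA-2 AAV-GFP libraries. Pcdha12 had 59 counts in GFP-303 and 5 and 6 in the others, Pcdha11 had 0 counts in all 3, and Pcdha7 had 2 counts in GFP-303 alone. Pcdhac2, the alpha C-type member, had 0, 8 and 9 counts there. No alpha member passed the filter on low counts in any comparison within a fraction.

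Levels of many members were uneven between libraries of 1 group. In the ACSA-2 fraction 38 of the 46 members had counts in all 6 libraries, and for 9 members a single library held over 50% of the CPM summed over those libraries. In the CD11b fraction 24 members had counts in all 6 libraries, and a single library held over 50% for 17 members. Pcdhga3 was 1 of the 9, with 267 counts in GFP-303 and 4 to 26 in the other ACSA-2 libraries.

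The AAV-A2A astrocytes had a lower summed level of the family and a more even spread over its members. Summed over the 46 members, the level was 291, 416 and 358 CPM with AAV-GFP (GFP-303, GFP-306, GFP-307), against 197, 163 and 203 CPM with AAV-A2A (A2A-309, A2A-310, A2A-313). The groups did not overlap (355 ± 62.5 against 188 ± 21.4 CPM, SD, n = 3 each), and the log2 ratio of the means was -0.92. Gamma A members summed to 165 ± 24.7 CPM with AAV-GFP and 53.7 ± 8.71 with AAV-A2A, gamma B members to 79.8 ± 8.79 and 39.1 ± 7.12, and C-type members to 56.6 ± 16.5 and 22.2 ± 3.24, each without overlap. The beta sum was 53.2 ± 14.3 CPM with AAV-GFP and 72.3 ± 19.6 CPM with AAV-A2A, and those groups overlapped. Being sums over members proposed with the results known, these values carry no test. The family and gamma A sums include Pcdhga7, the gene named with the family. Without Pcdhga7 the other 45 members summed to 173, 257 and 250 CPM with AAV-GFP. With AAV-A2A they summed to 168, 142 and 178 CPM, so those groups overlapped (227 ± 46.4 against 162 ± 18.6 CPM).

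**Figure D2:**
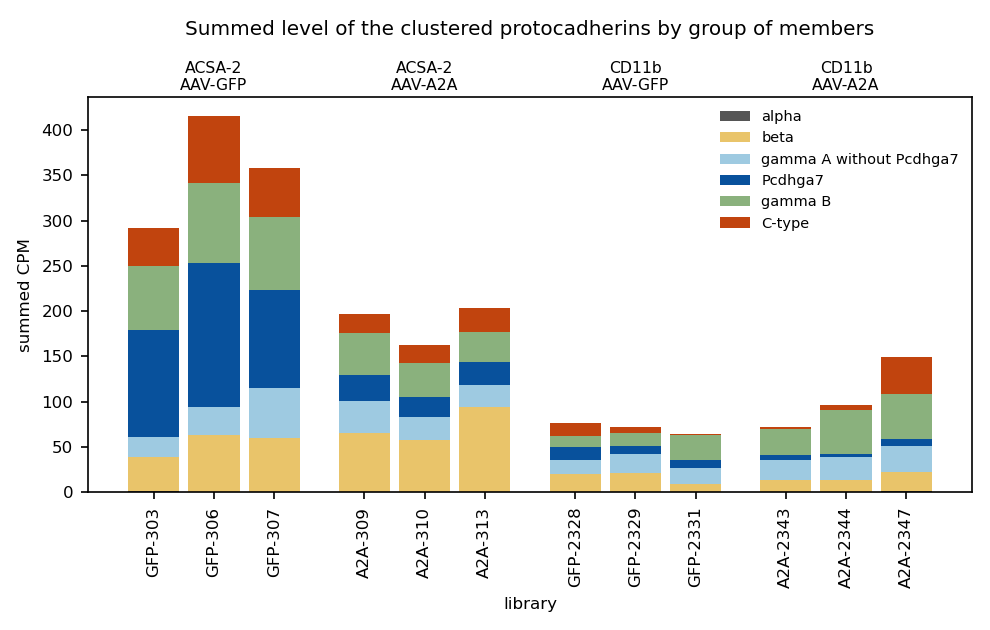
Stacked bars give the summed CPM of the members in each of the 12 libraries, split into alpha, beta, gamma A without Pcdhga7, Pcdhga7, gamma B and C-type. The Pcdhga7 segment is 108 to 159 CPM in the ACSA-2 AAV-GFP libraries and 21.6 to 28.6 CPM in the AAV-A2A libraries, while the beta segment overlaps between them.

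Most of that difference came from 3 genes. Without Pcdhga7, Pcdhgb7 and Pcdhgc5, which were set aside after their values had been seen, the other 43 members summed to 97.5, 154 and 164 CPM with AAV-GFP and to 130, 117 and 146 CPM with AAV-A2A (139 ± 36.0 against 131 ± 14.7 CPM). Pcdhga7 alone took 40.6, 38.3 and 30.2% of the family's counts with AAV-GFP (36.4 ± 5.46%) and 14.6, 13.2 and 12.6% with AAV-A2A (13.5 ± 1.03%). The 95% Wilson intervals of these single-library shares, which cover counting error only, were at most 1.78 percentage points wide. The number of members needed to reach 50% of the family's counts was 2 to 3 with AAV-GFP and 6 to 7 with AAV-A2A. Beta members held 14.8 ± 1.98% of the family's counts with AAV-GFP and 38.2 ± 7.20% with AAV-A2A. A share rises when another member falls, so a larger beta share alone says nothing of the beta level.

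Gene by gene, AAV-A2A was compared with AAV-GFP within the ACSA-2 fraction by edgeR's quasi-likelihood test over 16451 genes, with a call at an adjusted p (Padj) under 0.05 and an absolute log2 FC over 0.32. Of the 46 members 39 passed the filter on low counts. Apart from Pcdhga7, which is described without a test, 2 of the 38 others were called, Pcdhgb7 and Pcdhgc5, both lower with AAV-A2A. Of all tested genes 3.36% were called and 3.19% were called lower, and since the family was proposed with these results known, nothing is read from its count. These 2 and Pcdhga7 had the highest summed counts of the family in that fraction, and their standard errors (SE) were 0.22 to 0.36 on the log2 scale, against 0.32 to 1.84 for the 36 members not called.

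Pcdhga7 had 4728, 5378 and 4134 counts with AAV-GFP, against 1034, 913 and 1152 counts with AAV-A2A. In CPM these were 118, 159 and 108 against 28.6, 21.6 and 25.5, so every AAV-GFP library lay far above every AAV-A2A library. The log2 FC was -2.35 (SE 0.22), and it stayed between -2.47 and -2.17 in 13 other settings, including each library left out. As the gene that came with the family, it is given as a description.

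Pcdhgc5 was likewise lower in every AAV-A2A library. It had 1024, 1430 and 1151 counts (25.6, 42.4 and 30.1 CPM) with AAV-GFP and 290, 224 and 535 counts (8.03, 5.29 and 11.8 CPM) with AAV-A2A. Its log2 FC was -1.96 (SE 0.36, Padj = 0.0156 over all genes). Pcdhgb7 had 2001, 2025 and 2115 counts (50.0, 60.0 and 55.4 CPM) with AAV-GFP and 1096, 826 and 883 counts (30.4, 19.5 and 19.5 CPM) with AAV-A2A. The groups did not overlap, and the log2 FC was -1.25 (SE 0.24, Padj = 0.0219). Both calls depended on single libraries, while the direction did not. Neither was called without GFP-306, without GFP-307, without A2A-310 or in a fit of all 12 libraries. In the same order, calls over all genes fell from 553 to 272, 341, 295 and 146. Pcdhgb7 was called in 7 and Pcdhgc5 in 8 of 13 other settings (Padj between 4.89e-05 and 0.146 and between 4.04e-06 and 0.542), always with the same direction.

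**Figure D3:**
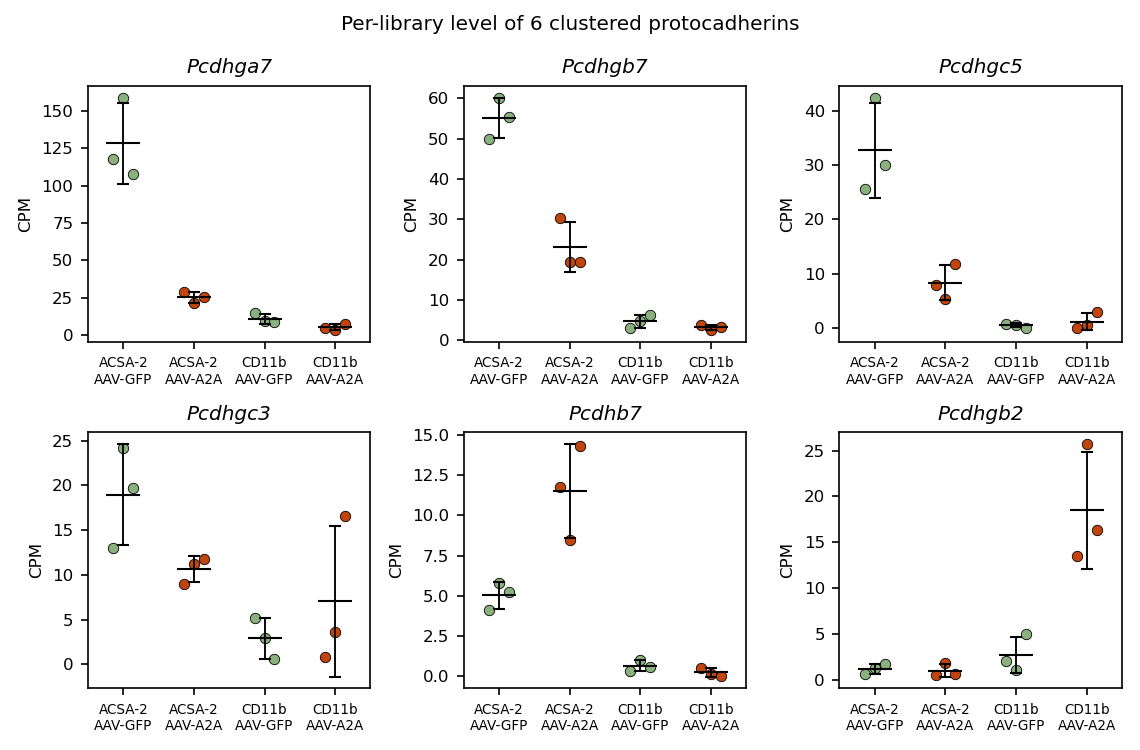
Each point is the CPM of a library, with the mean and SD of the group's 3 libraries, for 6 members. Pcdhga7, Pcdhgb7 and Pcdhgc5 are lower in all ACSA-2 AAV-A2A libraries than in all AAV-GFP libraries, Pcdhb7 is higher without passing the test, and Pcdhgb2 is higher in the CD11b AAV-A2A libraries without passing the edgeR test.

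The remaining C-type members did not pass the test. Pcdhgc3 had 13.0, 24.2 and 19.7 CPM with AAV-GFP and 8.97, 11.2 and 11.8 CPM with AAV-A2A, with no overlap and a log2 FC of -0.83 (SE 0.32, Padj = 0.284). Pcdhgc4, a C-type member known to be needed for neuron survival, had 110, 247 and 167 counts against 112, 162 and 101, with overlap and a log2 FC of -0.66 (SE 0.54, Padj = 0.725). Pcdhac2 was below the filter, with 0 to 9 counts per ACSA-2 library.

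Gamma genes beside these 3 did not pass the test. Pcdhga6 and Pcdhgb4, the members on either side of Pcdhga7, had log2 FCs of -0.61 (SE 0.55) and -0.54 (SE 0.71). Pcdhga11, next to Pcdhgb7, had -0.85 (SE 0.68). Pcdhgb6, the member on its other side, had -0.46 (SE 0.47). Pcdhga2 had -0.59 (SE 1.01). Over the gamma A members 5 log2 FCs were positive and 6 negative with a median of -0.25, and all 6 tested gamma B members were negative with a median of -0.54. The median over all 16451 genes was 0.02, with 51.6% positive.

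No beta member was called, and most had positive log2 FCs. Of 19 tested, 13 had a positive log2 FC, and the median was 0.41, beside the all-gene median of 0.02. Pcdhb7 came closest, with 4.10, 5.78 and 5.21 CPM with AAV-GFP and 11.8, 8.48 and 14.3 CPM with AAV-A2A. Its groups did not overlap, and the log2 FC was 1.20 (SE 0.36, Padj = 0.149), a change that DESeq2 called (Padj = 0.0167) and edgeR did not. Pcdhb14, with the highest counts of the beta members, had a log2 FC of -0.32 (SE 0.38). Pcdhb9 had 0.53 (SE 0.51), Pcdhb12 0.36 (SE 0.78), Pcdhb17 1.07 (SE 0.82) and Pcdhb22 0.01 (SE 0.92). Over all 39 tested members 10 had groups without overlap, 5 higher (all beta) and 5 lower (all gamma array), beside 19.5% of all tested genes.

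**Figure D4:**
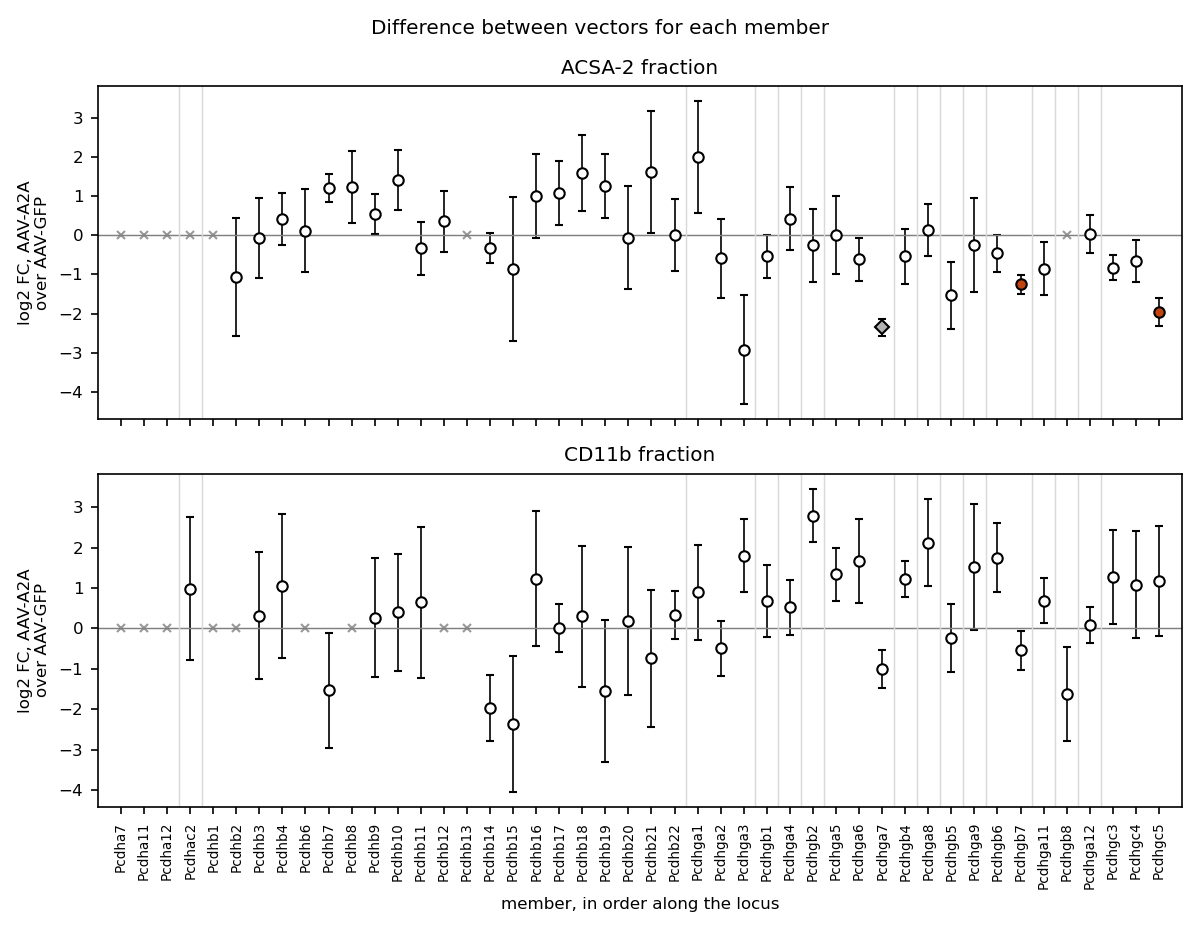
Points are log2 FCs of AAV-A2A over AAV-GFP with their SE for the members in order along the chromosome, in the ACSA-2 fraction (top) and the CD11b fraction (bottom), where filled circles are called, the grey diamond is Pcdhga7, shown without a test, grey crosses mark members below the filter and thin lines separate the groups of members. In the top panel Pcdhgb7 and Pcdhgc5 are filled at -1.25 and -1.96, the diamond stands at -2.35, and no circle is filled in the bottom panel.

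Some markers of other cells moved in the same direction. Of 4 oligodendrocyte precursor markers, whose sum was 207 to 299 CPM in the ACSA-2 AAV-GFP libraries and 52.6 to 81.6 CPM in the AAV-A2A libraries, only Cspg4 was called lower (log2 FC -2.17, SE 0.24, Padj = 0.00226). Cspg4 made up most of that sum. Pdgfra had 4.07 to 7.43 CPM with AAV-GFP and 4.32 to 4.53 CPM with AAV-A2A, Vcan had a log2 FC of -1.03 (SE 1.01), and Gpr17 had 0 counts in the AAV-GFP libraries. Of the other lists, Sall1 of the 8 microglia markers and Flt1 of the 5 endothelial markers were called lower, where 3.19% of all tested genes were. Microglia markers summed to 266 to 441 CPM with AAV-GFP and 239 to 283 CPM with AAV-A2A, and endothelial markers to 428 to 478 and 254 to 463 CPM. Neuron markers summed to 33.9 to 97.6 CPM with AAV-GFP and 15.7 to 50.6 CPM with AAV-A2A. No astrocyte, neuron, oligodendrocyte, mural cell, choroid plexus, ependymal or erythrocyte marker was called. The part of these cells in the protocadherin difference was not tested, and in bulk libraries fewer cells of a type and less RNA per cell cannot be told apart.

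Genes that act on the clusters or beside their proteins were also compared between vectors. Of all genes tested in the ACSA-2 fraction 3.36% were called. Of 23 regulators of promoter choice and chromatin, which included CTCF, cohesin subunits and DNA methyltransferases, 1 was called in the ACSA-2 fraction. That was Wapl, which releases cohesin from chromatin, at 23.8, 22.1 and 24.2 CPM with AAV-GFP and 41.3, 46.9 and 45.4 CPM with AAV-A2A (log2 FC 0.93, SE 0.20, Padj = 0.0368). The median log2 FC of the 23 was -0.01. Ctcf itself had 0.33 (SE 0.28, Padj = 0.733). Of 28 tested partners, cytoplasmic effectors and proteases, 1 was called. That was Ptk2, the focal adhesion kinase, which gamma and alpha protocadherins bind through their tails, at 233, 173 and 217 CPM with AAV-GFP and 105, 100 and 92.3 CPM with AAV-A2A (log2 FC -1.07, SE 0.18, Padj = 0.0101). Of 11 tested non-clustered protocadherins, single genes outside the arrays, none was called.

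In microglia no member was called between vectors. The same test in the CD11b fraction covered 16949 genes and 37 members, and it called 0 members and 0 genes (0% of all tested). At an unadjusted p under 0.05 there were 2704 genes and 3 members. DESeq2 called 455 genes (2.46% of those with an adjusted p) and 1 of 38 members, Pcdhgb2. Without the choroid-rich libraries, which leaves 2 AAV-A2A libraries against GFP-2331 alone, edgeR called 3 genes and 0 members, where the lone library is assumed to vary like the others.

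The largest CD11b difference among members was that of Pcdhgb2, which is singled out here after its values were seen. It had 102, 47 and 195 counts in GFP-2328, GFP-2329 and GFP-2331 (2.68 ± 2.01 CPM, SD, n = 3), and 496, 910 and 888 counts in A2A-2343, A2A-2344 and A2A-2347 (18.5 ± 6.40 CPM). All AAV-A2A libraries lay above all AAV-GFP libraries, and the log2 FC was 2.79 (SE 0.66), but edgeR gave Padj = 0.280 and DESeq2 Padj = 0.00896. In the 3 choroid-poor libraries alone the log2 FC was 1.99 (SE 0.89). With AAV-A2A, Pcdhgb2 took 18.9, 26.7 and 10.9% of the family's counts, with 95% Wilson intervals at most 2.99 percentage points wide. In the ACSA-2 fraction Pcdhgb2 had 0.554 to 1.77 CPM over all 6 libraries and a log2 FC of -0.26 (SE 0.93).

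Other gamma members of the CD11b fraction went both ways. Pcdhgb4 had 2.80, 3.33 and 5.60 CPM with AAV-GFP and 9.18, 10.1 and 8.13 CPM with AAV-A2A (log2 FC 1.23, SE 0.45, Padj = 0.288, and 0.79, SE 0.90, in the choroid-poor libraries). Pcdhga7 had 14.6, 9.33 and 8.47 CPM with AAV-GFP and 4.93, 3.59 and 7.75 CPM with AAV-A2A (log2 FC -0.99, SE 0.47, Padj = 0.350, and -0.99, SE 0.91, in the choroid-poor libraries). Both were without overlap, as were Pcdhgb2 and Pcdhga11, which makes 4 of 37 tested members, where 23.4% of all genes were without overlap. Pcdhgb7 had 3.15, 4.76 and 6.26 CPM with AAV-GFP and 3.84, 2.54 and 3.35 CPM with AAV-A2A (log2 FC -0.54, SE 0.48, and -0.97, SE 0.95, in the choroid-poor libraries). Of the 37 members 27 had a positive log2 FC with a median of 0.53, where the all-gene median was -0.05. In the choroid-poor libraries 22 of 37 were positive with a median of 0.79, where the all-gene median was 0.04.

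The summed C-type level of the CD11b fraction was highest in the choroid-rich libraries. Pcdhac2 had 811, 297 and 86 counts in A2A-2347, GFP-2328 and GFP-2329, and 3, 29 and 6 counts in A2A-2343, A2A-2344 and GFP-2331. Pcdhgc3 had 904, 264 and 123 counts in the first 3 libraries and 30, 129 and 25 in the other 3, so for this member A2A-2344 lay above GFP-2329. The 4 C-type members summed to 41.1, 13.8 and 6.89 CPM in the choroid-rich libraries and to 1.61, 5.34 and 1.12 CPM in the choroid-poor ones, so these sets of libraries did not overlap within either vector or across them. Of the 6 choroid plexus markers, 3 (Aqp1, Clic6 and Kl) were highest in A2A-2347 among the choroid-rich libraries, as the C-type sum was, and 3 (Ttr, Folr1 and Kcne2) were lowest there. The part of choroid plexus RNA in these values was not tested. Between vectors the 4 log2 FCs were 0.98 to 1.27, with a median SE of 1.34, and all 4 directions turned without A2A-2347. In that fit Pcdhac2 had -2.55 (SE 1.65), Pcdhgc3 -0.36 (SE 1.07), Pcdhgc4 -1.29 (SE 1.20) and Pcdhgc5 -0.73 (SE 1.42). The mean C-type sum with AAV-A2A was 16 CPM with that library and 3.48 CPM without it, and the AAV-GFP mean of 7.28 CPM was 4.0 CPM without GFP-2328. In the choroid-poor libraries the 4 log2 FCs were 1.20 to 1.82, with SEs of 1.36 to 2.92.

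The genes that led the family in the ACSA-2 AAV-GFP libraries were higher there than in the CD11b AAV-GFP libraries. Their lead was read from the same ACSA-2 libraries, so that choice favours this direction. On the CD11b side GFP-2328 and GFP-2329 were choroid-rich. In the AAV-GFP libraries the ACSA-2 and CD11b fractions were compared over 17110 genes, and edgeR called 8 of 38 tested members, all higher in ACSA-2, where 26.7% of all tested genes were called and 12.9% were called higher in ACSA-2. DESeq2 called 23 of 44 members, 21 higher and 2 lower in ACSA-2 (Pcdhac2 and Pcdhgb8), against 34.1% of genes with an adjusted p, and limma-voom called 13 of 38, all higher, against 29.4%. Of the 38, 32 had a positive log2 FC and the median was 2.02, against -0.09 for all genes. The filter keeps a gene that is high enough in a single group, so this count and median depend on it. Pcdhb6, Pcdhb8 and Pcdhb12 were among the 38 but did not pass the filter within the CD11b fraction. Pcdhac2, with 297, 86 and 6 counts in the CD11b libraries against 0, 8 and 9 in ACSA-2, was left out. In 17 members the groups did not overlap, 16 of them higher in ACSA-2, against 50.7% of all genes. Fraction and count table go together in this series, so cell type and batch cannot be told apart.

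Pcdhgc5 had the largest of these differences, with 43, 28 and 5 counts in GFP-2328, GFP-2329 and GFP-2331 against 1024 to 1430 in the ACSA-2 libraries (log2 FC 5.96, SE 0.72, Padj = 0.00309). Pcdhga7 had 741, 398 and 334 counts in the CD11b libraries (log2 FC 3.63, SE 0.32, Padj = 0.000884). Pcdhgb7 had 160, 203 and 247 counts there (log2 FC 3.58, SE 0.37, Padj = 0.00157). These values share their ACSA-2 AAV-GFP libraries with the vector comparison, and Pcdhga7 was named with results of these data known, which favours this direction. Pcdhga7 and Pcdhgb7 kept the call in every leave-one-out fit. Those fits reuse most of the same libraries, so they give no separate support. With all 12 libraries on 1 scale, the CD11b level of Pcdhgc5 was 1.58% of its ACSA-2 level, that of Pcdhga7 8.09% and that of Pcdhgb7 8.38%, while the astrocyte markers in CD11b libraries were at 2.92% of their ACSA-2 level.

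The other 5 called members were Pcdhb7 (log2 FC 3.02, SE 0.66), Pcdhgc3 (2.78, SE 0.73), Pcdhb14 (2.45, SE 0.64), Pcdhga8 (2.45, SE 0.70) and Pcdhgb6 (1.69, SE 0.46), with Padj from 0.0179 to 0.0411. Pcdhb7 had 17, 42 and 23 counts in the CD11b libraries and 164, 195 and 199 in the ACSA-2 libraries. Pcdhb14 had 204, 126 and 33 counts against 412, 658 and 420. Pcdhgb6 had 137, 114 and 77 counts against 337, 182 and 345. The count of 8 fell to 4 without GFP-303, to 3 without GFP-306 or GFP-307 and to 5 without GFP-2329. Over all genes the calls fell as well, from 4561 to 2120, 1977, 2313 and 2144 in the same order. Without the choroid-rich GFP-2328 and GFP-2329, GFP-2331 stood alone on the CD11b side. In that fit the log2 FC of Pcdhgc4 was 4.50, while Pcdhb7, Pcdhga8 and Pcdhgb6 lost their calls. Pcdhgc3 was higher by a log2 FC of 4.85 (SE 0.70) in that fit.

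**Figure D5:**
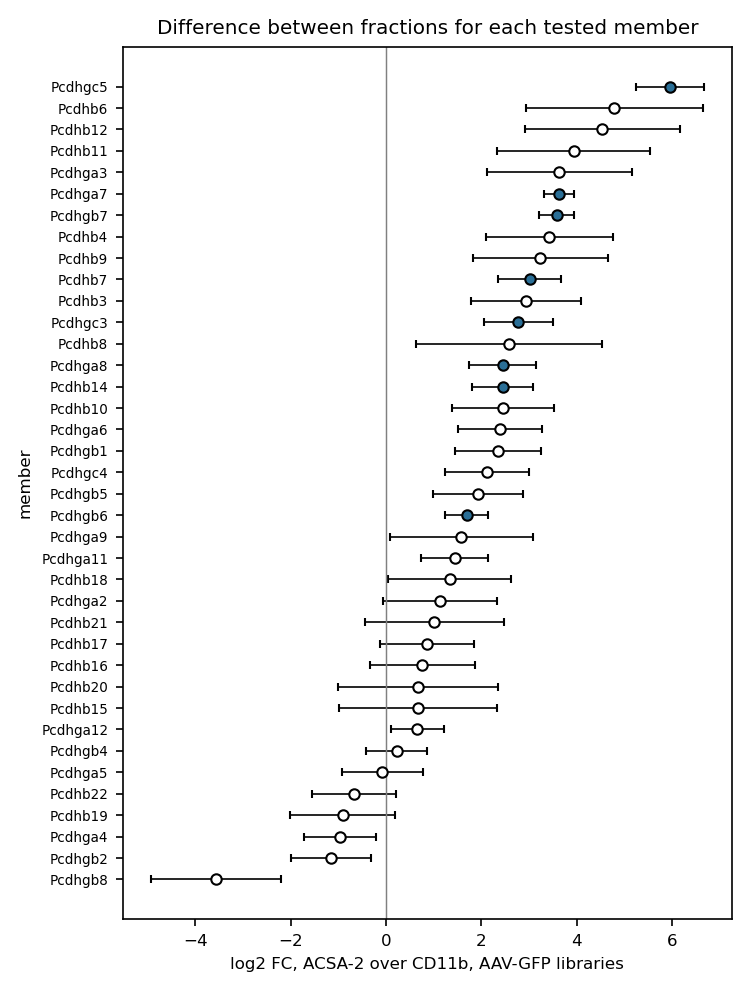
Points are log2 FCs of ACSA-2 over CD11b with their SE in the AAV-GFP libraries for the 38 tested members, sorted, with filled points for the 8 called. Pcdhgc5 stands at 5.96, and Pcdhgb8 at the low end, at -3.57, is not called.

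Of the 38 members 6 had a negative log2 FC between the fractions, none of them called by edgeR. Per kilobase, the CD11b AAV-GFP libraries were led by Pcdhga7 (4.21 ± 1.29 CPM per kb), Pcdhgb7 (2.59 ± 0.854) and Pcdhga2 (2.41 ± 1.14), whose SD ranges overlapped between neighbours. In choroid-poor GFP-2331 alone the same 3 led, at 3.31, 3.44 and 3.26 CPM per kb. Pcdhb17 and Pcdhb22 had 0.294 and 0.284 CPM per kb in that library. Over the 3 CD11b AAV-GFP libraries Pcdhb22 at 0.873 ± 0.511 CPM per kb and Pcdhb17 at 0.300 ± 0.0292 were the highest beta members. Pcdhb14 had almost the same mean as Pcdhb17, at 0.299 ± 0.186. Pcdhb22 had 352, 317 and 69 counts against 105, 24 and 240 in ACSA-2 (log2 FC -0.67, SE 0.89). Pcdhgb8, a polymorphic pseudogene in the annotation, had 14, 23 and 141 counts against 1, 7 and 5 (log2 FC -3.57, SE 1.37, Padj = 0.0967). Pcdhgb2 had a log2 FC of -1.15 (SE 0.84, Padj = 0.342) in the AAV-GFP libraries. In the AAV-A2A libraries the same contrast called 9 of 40 members, 8 higher in ACSA-2, where 47.2% of all genes were called and 21.6% called higher. Pcdhgb2 was lower there (log2 FC -4.17, SE 0.65, Padj = 0.00163). Pcdhga7 (log2 FC 2.29) and Pcdhgb7 (2.88) were again called in that contrast, whereas Pcdhgc5 (2.89, SE 1.13, Padj = 0.0653) and Pcdhgc3 (0.74, SE 0.87) were not. Without choroid-rich A2A-2347 the contrast called 13 of 41 members, where 8685 of all 17774 tested genes were called. Among the 13 members were Pcdhgc5 (4.66, SE 1.05, Padj = 0.00668) and Pcdhgc3 (2.23, SE 0.72, Padj = 0.0307), and Pcdhgb2 had -4.33 (SE 0.67).

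Most non-clustered protocadherins were called higher in the ACSA-2 fraction. Of 11 tested, 8 were called higher and none lower, with a median log2 FC of 2.75, where 26.7% of all genes were called and 12.9% called higher. Pcdh7, Pcdh8 and Pcdh12 were not called, and Pcdh12 had a log2 FC of -0.71 (SE 1.00). Of the 23 regulators 1 was called higher and 4 lower, and of the 29 partners 6 were called higher and 5 lower, beside the same shares of all genes. The fit without the choroid-rich libraries leaves GFP-2331 alone on the CD11b side, so its calls are not given for these lists.

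Whether the vector difference itself differed between fractions was tested as an interaction in all 12 libraries. Of 42 tested members edgeR called 0, against 0.39% of 18995 tested genes. At an unadjusted p under 0.05 there were 6 members and 3642 of the 18995 genes. DESeq2 called 3 of 41 members (Pcdhga7, Pcdhga3 and Pcdhgb2), against 9.02% of genes with an adjusted p. Without the choroid-rich libraries edgeR called 0 of 46 members and 0 genes, with 6 members and 2227 genes at an unadjusted p under 0.05. For Pcdhgb2 the interaction, ACSA-2 minus CD11b, was -3.08 (SE 0.98, Padj = 0.133) and -2.30 (SE 1.15) without the choroid-rich libraries, and it was the 1 member called by edgeR without GFP-2331. For Pcdhga7, whose ACSA-2 difference is part of the term, it was -1.40 (SE 0.42). For Pcdhgc5 it was -3.14 (SE 1.33, Padj = 0.226) and for Pcdhgb7 -0.75 (SE 0.47, Padj = 0.419). By edgeR, therefore, no member was shown to respond differently to the vector in the 2 fractions, and the misses of the threshold do not show that the responses were alike.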

How the data were processed

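The deposited values are raw read counts per Ensembl gene. The authors prepared polyA RNA with a SMART-Seq v4 and Nextera XT kit, which does not mark strand, trimmed reads with cutadapt 1.10, aligned them to mm10 with STAR 2.5.3 and counted unique alignments with HTSeq 0.6.1p1 in union mode; the strand setting is not given in the sources used here. Both tables (27866 and 30359 genes) hold no gene without a count, so a gene absent from one table entered joint fits as 0. A total of 25 empty, unnamed columns were not used. Reads are PCR copies without molecular identifiers. Libraries were grouped by their labels.

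Symbols, positions and unshared exon bases came from GENCODE M21 (GRCm38). Counts were fitted over all genes with edgeR 4.0.16 (TMM, filterByExpr, robust quasi-likelihood) in R 4.3.3. Padj is the Benjamini-Hochberg value over all tested genes, calls need Padj under 0.05 and an absolute log2 FC over 0.32, and SE is the absolute log2 FC divided by the root of F. Alternatives were DESeq2 1.42.0, limma-voom (limma 3.58.1), median-of-ratios scaling, no filter or at least 10 counts in every library, an absolute log2 FC over 1, a joint fit, the AAV-A2A libraries, each library left out and, chosen after seeing the data, the choroid-rich libraries left out. The setting with an absolute log2 FC over 1 is the main fit with a stricter cutoff. The scripts were tested on simulated data. Figures used matplotlib in Python.

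Members and lists were chosen with earlier results of these data known. Members named are those called in any comparison, the 2 highest per kilobase of the alpha, beta, gamma A and gamma B members in the AAV-GFP libraries of each fraction, all C-type members and Pcdhga7; of the gene lists, those called between vectors. Members named outside that rule (neighbours of called genes, Pcdhgb2, Pcdhga3, Pcdhgb8, Pcdhb13, Pcdhb5 and Ctcf) were chosen after their values were seen.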

Additional observations from a re-analysis of the deposited data

How the results depend on the processing

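In the ACSA-2 vector comparison (3 called, Pcdhga7 included), the fit of all 12 libraries called 1, and leaving out each library gave 1 to 2. Each of these counts includes Pcdhga7, which is described without a test, so they do not show that a family call persists. No other member was called in the fit of all 12 libraries, or without GFP-306, GFP-307 or A2A-310. Without GFP-303 or A2A-313 the other call was Pcdhgc5, and without A2A-309 it was Pcdhgb7. Over all genes 553 were called in the main fit, 146 in the fit of all 12 libraries and 272 to 448 with each library left out. In the CD11b vector comparison (0 called), DESeq2 called 1, beside 455 of all genes, and leaving out each library gave 0 each time, also over all genes. In the fraction comparison (8 called), DESeq2 called 23 (21 higher and 2 lower in ACSA-2), limma-voom 13, the AAV-A2A libraries without A2A-2347 also 13, and leaving out each library gave 3 to 10. Over all genes 4561 were called in the main fit, 7116 by DESeq2 and 5029 by limma-voom. In the AAV-A2A libraries without A2A-2347 these were 8685, and with each library left out 1977 to 6168. For the interaction (0 called), DESeq2 called 3, beside 1726 of all genes. Leaving out each library gave 0 to 1, beside 0 to 1253 of all genes. The other settings stayed within 1.5 times the main counts of members. Directions turned as well, mostly of members that were not called. Over the named members and their settings this held for 14 of 208 log2 FCs (7 of 16 members) in the ACSA-2 vector comparison, 15 of 218 (7 of 16) in the CD11b vector comparison, 8 of 252 (4 of 16) in the fraction comparison and 19 of 334 (7 of 18) for the interaction. ACSA-2 Pcdhga2 ranged from -1.24 to 0.66 and Pcdhgb4 from -0.86 to 0.12. Of called members Pcdhgb6 alone turned, from a log2 FC of 1.69 to -0.46 in the fraction contrast of the AAV-A2A libraries, and the cause was not tested. Another scaling moved no summed level of the family or of its groups by more than 1 SD. Single libraries moved the CD11b C-type mean by over 1.5 times, from 16 to 3.48 CPM without A2A-2347 (AAV-A2A) and from 7.28 to 4.0 CPM without GFP-2328 (AAV-GFP), and the alpha mean, which stayed under 1 CPM. No paired analysis was run, because the groups share no replicate numbers. The labels do not say whether ACSA-2 and CD11b libraries came from the same mice, and fits across fractions treated them as independent. A member without a call may still differ. Fits that leave 1 library in a group assume that it varies like the others.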
